A study of Mus musculus with 99 samples.

Results

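The genes examined here encode chaperones and folding enzymes of the endoplasmic reticulum (ER): Dnajc10, Hspa5, Hsp90b1, Pdia4, Pdia6, Calr, Dnajb9, Sdf2l1, Hyou1 and Erlec1. They were chosen by name, with earlier results of these data known. Every probe set that the platform annotation gives to one of these symbols was used. This gave 10 of the 11725 named genes on the array, with 19 probe sets. Of these, 16 probe sets of 9 genes had a mean above the floor of 3.59 log2 units that decided which probe sets were tested. Sdf2l1 (1418206_at), one Pdia6 probe set (1430983_at) and one Hyou1 probe set (1451913_a_at) fell below the floor and were left out of the comparisons between groups. Sdf2l1 still entered the correlations across strains.

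Heart RNA of untreated male mice on a chow diet was measured on 1 Affymetrix HT_MG-430A array per strain, 99 arrays in all, for an association study of expression across the genome. The groups were 28 classical inbred strains, 30 BXD strains (C57BL/6J by DBA/2J), 15 AXB and 13 BXA strains (C57BL/6J and A/J, crossed in opposite directions) and 11 BXH strains (C57BL/6J by C3H/HeJ). CAST/EiJ and B6cC3-1/KccJ had 1 array each. Recombinant inbred strains are homozygous mosaics of their parents, so each panel carries, at any locus, either the C57BL/6J allele or that of the other parent. The protocol gives an age of 16 weeks for all mice, whereas the age label runs from 16 to 113 weeks along the sample order, so the age label was not used. Closely related strains (AXB19 with its sublines, and BXD24 with its Cep290 mutant) were averaged, which left 29 BXD and 26 AXB and BXA families. The array of BXD29 is of its Tlr4 mutant, BXD29-Tlr4<lps-2J>/J. With no strain repeated, errors and p-values rest on how far strains lie apart, which also holds technical variation.

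Secretory and membrane proteins enter the ER unfolded. Hspa5 (BiP), an Hsp70 of the ER lumen, binds them in cycles of ATP hydrolysis that J-domain proteins such as Dnajc10 and Dnajb9 start, and Hyou1 exchanges its nucleotide. Hsp90b1 (GRP94) is the Hsp90 of the ER, Pdia4 and Pdia6 are protein disulfide isomerases, and Calr (calreticulin) holds glycoproteins through their sugars and stores calcium. Sdf2l1 sits in a complex with J-domain proteins and Hspa5, and Erlec1 is a lectin of ER-associated degradation. Unfolded protein in the ER sets off the unfolded protein response, in which the factors ATF6, XBP1 and ATF4 raise transcription of many of these genes. ATF6, with the CCAAT-binding factor NF-Y, acts on the ER stress response element, and it is also active in cardiomyocytes after ischaemia.

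Promoter sequence is shown for the members that carry this element, and for Dnajc10, which varied most between the panels. RefSeq sequence upstream of the annotated start (GRCm38.p6) was found for 8 of the 10 genes. The letters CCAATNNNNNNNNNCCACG were searched on both strands in the promoter sequences, which reach beyond the 250 upstream bases. They occurred in 39 of 32851 promoters (0.119%) and in 4 of the 8. These were the promoters of Hspa5, Calr, Hsp90b1 (at 2 places) and Pdia6, all within the 250 upstream bases. Cut to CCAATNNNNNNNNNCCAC the pattern occurred in 0.365% of all promoters and also in that of Pdia4. CCAAT alone was found in 37.4% and CCACG alone in 32.8% of all promoters. Each of these short motifs was found in 7 of the 8 members, all but Dnajc10. In Pdia4 the CCACG match lay outside the 250 upstream bases. In the first 5 lines below, capitals mark both ends of the element and each stretch has 79 bases. The Dnajc10 line gives all 250 upstream bases, with no capitals because neither short motif occurs there on either strand. A match of letters is a description, not a binding site.
Hspa5, chr2:34771995-34772073, plus strand: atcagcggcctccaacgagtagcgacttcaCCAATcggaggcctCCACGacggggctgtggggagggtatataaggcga
Calr, chr8:84847045-84847123, plus strand, opposite to the gene: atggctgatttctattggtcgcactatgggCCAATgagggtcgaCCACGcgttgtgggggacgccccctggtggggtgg
Hsp90b1, chr10:86705608-86705686, minus strand: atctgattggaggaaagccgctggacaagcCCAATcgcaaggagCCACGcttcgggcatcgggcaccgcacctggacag
Hsp90b1, chr10:86705503-86705581, plus strand, opposite to the gene: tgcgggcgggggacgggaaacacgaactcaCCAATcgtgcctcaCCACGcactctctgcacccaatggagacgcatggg
Pdia6, chr12:17266461-17266539, plus strand: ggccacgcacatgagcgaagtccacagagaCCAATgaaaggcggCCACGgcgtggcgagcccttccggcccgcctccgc
Dnajc10, chr2:80315216-80315465, plus strand: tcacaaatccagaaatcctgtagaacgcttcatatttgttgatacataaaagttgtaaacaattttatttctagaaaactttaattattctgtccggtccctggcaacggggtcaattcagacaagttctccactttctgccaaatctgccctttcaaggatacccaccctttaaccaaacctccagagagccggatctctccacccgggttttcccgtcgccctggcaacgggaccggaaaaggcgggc

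The arrays were of heart: the ventricular light chain Myl2 stayed between 13.39 and 13.65 log2 units and cardiac troponin Tnnt2 between 12.64 and 13.03 on all arrays. Markers of another organ (airway, liver, squamous epithelium, skeletal muscle, thymus or thyroid) exceeded the median array by over 2 log2 units on 37 of the 99 arrays. These were 9 of 28 classical, 8 of 11 BXH, 4 of 13 BXA, 6 of 15 AXB and 9 of 30 BXD arrays, and CAST/EiJ. The DBA/2J and A/J arrays were among these, with airway list means of 8.77 and 6.21 against a classical median of 4.04, whereas C57BL/6J (3.28) and C3H/HeJ (3.36) were not. RNA quality was read from the Gapdh control, as its 3' signal minus its 5' signal, which was -0.22 ± 0.085 (SD, n = 30) in BXD, -0.32 ± 0.092 (n = 15) in AXB, -0.30 ± 0.069 (n = 13) in BXA, -0.31 ± 0.11 (n = 11) in BXH and -0.34 ± 0.083 (n = 28) in the classical strains. The sample titles are numbers of unstated meaning. They ran from 473 to 683 in BXD, AXB and BXA and from 3 to 456 in BXH and the classical strains, so title number and group cannot be told apart between these sets. In bulk tissue, fewer cells of a type and less RNA per cell cannot be told apart.

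Dnajc10 (ERdj5), which reduces disulfide bonds of misfolded proteins before they leave the ER, was the member that differed most between panels. On probe set 1426904_s_at the 29 BXD families ran from 7.06 (BXD31) through a median of 7.84 to 8.26 (BXD20). The 26 AXB and BXA families ran from 5.92 (AXB15) through 6.34 to 7.50 (BXA2), and the 11 BXH strains from 7.18 (BXH9) through 7.42 to 7.90 (BXH10). The BXD families were high and the AXB and BXA families low with an overlap: 22 of 29 BXD families lay above every AXB and BXA family, and 17 of 26 AXB and BXA families lay below every BXD family.

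**Figure D1:**
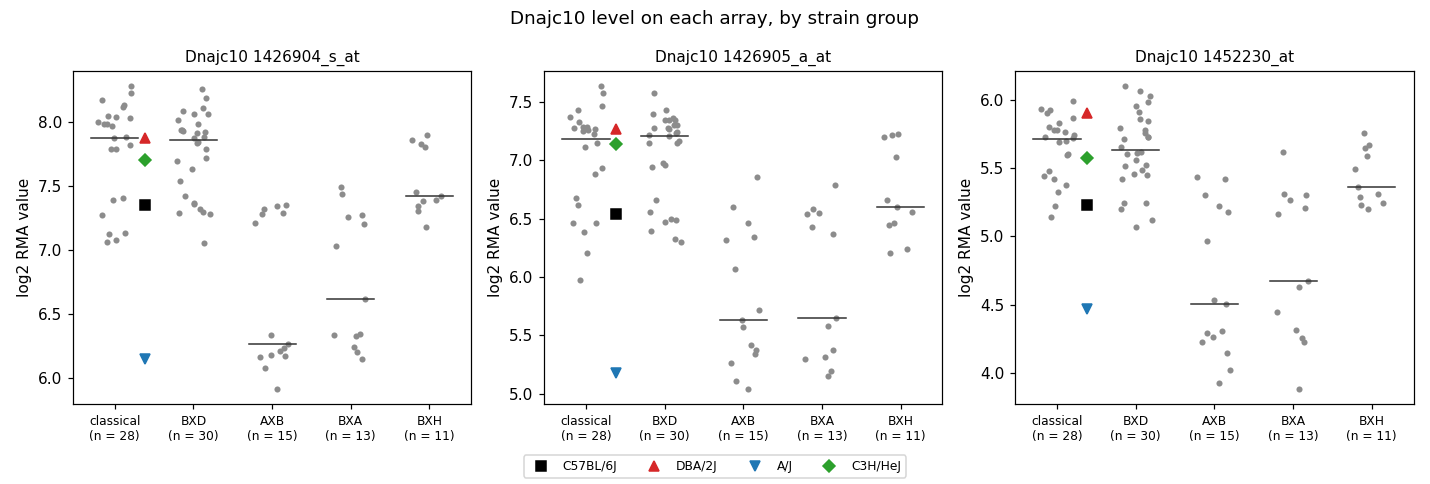
Level of Dnajc10 (log2 RMA value) on each array for its 3 probe sets. Grey points are arrays, bars are medians over arrays, and the coloured symbols are the parental arrays among the classical strains. The AXB and BXA arrays fall into a low and a higher set on each probe set, and A/J lies below all other classical strains.

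The difference between BXD and the AXB and BXA families was 1.12 log2 units (SE 0.12, limma adjusted p = 8.66e-10), a 2.17-fold difference with a 95% confidence interval of 1.85 to 2.54. The other Dnajc10 probe sets gave 1.22 (1426905_a_at, SE 0.13, limma adjusted p = 2.52e-09) and 0.97 (1452230_at, SE 0.11, limma adjusted p = 1.05e-08). Limma called 14.3% of the 13396 tested probe sets in this comparison, 7.52% as higher and 6.79% as lower in BXD. Among the members it called 3 of 16, all of Dnajc10. The difference was called under every alternative run for it, where 1426904_s_at ranged from 0.99 to 1.26. Within the lower range of title numbers it was 1.26 (limma adjusted p = 1.18e-06), and within the upper range 0.99 (limma adjusted p = 0.0060).

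BXH strains also had more Dnajc10 transcript than the AXB and BXA families. The differences were 0.89 (SE 0.17, limma adjusted p = 0.0010), 0.90 (SE 0.19, limma adjusted p = 0.0034) and 0.76 (SE 0.16, limma adjusted p = 0.0034) on 1426904_s_at, 1426905_a_at and 1452230_at. Limma called 5.61% of all tested probe sets 2.64% as higher and 2.96% as lower in BXH, and of the members again only the 3 of Dnajc10. All 11 BXH strains lay above the AXB and BXA median, and 4 of them above every AXB and BXA family on 1426904_s_at. Without the arrays that carry markers of another organ, only BXH20, BXH10 and BXH2 remained. The difference was then 0.99 against 17 families and did not pass the test (limma adjusted p = 0.24). The part of other tissue in this result was not tested.

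BXH lay below BXD by point estimates of 0.23, 0.32 and 0.21 log2 units on the 3 Dnajc10 probe sets. None passed the test (limma adjusted p = 0.17, 0.11 and 0.12), and the 95% intervals ran from -0.44 to -0.013, from -0.59 to -0.054 and from -0.39 to -0.031. Limma called 9.91% of all tested probe sets in that comparison, 4.52% as higher and 5.38% as lower in BXH, and 0 of 16 member probe sets, 3 of which had an unadjusted p under 0.05. AXB and BXA carry the alleles of the same parents. Between them limma called 0 probe sets of any gene, with 1370 at an unadjusted p under 0.05 and no member among these. The Dnajc10 difference of AXB minus BXA was -0.24 on 1426904_s_at (95% interval -0.65 to 0.17). These 4 comparisons share panels and are not independent of each other.

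In AXB and BXA, Dnajc10 levels fell into sets that lay near the parental levels on every probe set. In BXD and BXH the split depended on the probe set. The single C57BL/6J array read 7.36, 6.54 and 5.23 on 1426904_s_at, 1426905_a_at and 1452230_at. A/J read 6.15, 5.18 and 4.47, the lowest of the 28 classical strains on each of them. DBA/2J read 7.88, 7.27 and 5.90, and C3H/HeJ read 7.70, 7.14 and 5.57. The 4 parental arrays therefore stood in the order A/J, C57BL/6J, C3H/HeJ, DBA/2J on every Dnajc10 probe set, and with 1 array each this order has no test.

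In AXB and BXA, 10 families lay above the midpoint of C57BL/6J and A/J and 16 below it. These were the same families on all 3 probe sets, with none on different sides. The families above were AXB1, AXB10, AXB13, AXB19, BXA2, BXA4, BXA7, BXA16, BXA24 and BXA26. On 1426904_s_at they had a mean of 7.29 ± 0.13 (SD, n = 10), against 6.24 ± 0.15 (n = 16) below, and no family lay between 6.62 and 7.03. The empty range was 5.72 to 6.32 on 1426905_a_at and 4.67 to 5.17 on 1452230_at. Arrays with markers of another organ were 6 of 12 above and 4 of 16 below, and the Gapdh control difference was -0.31 ± 0.090 (SD) above and -0.32 ± 0.078 below. Both sides held AXB arrays (6 above, 9 below) and BXA arrays (6 above, 7 below).

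In BXD the split was less sharp. On 1426904_s_at 21 families lay above the midpoint of C57BL/6J and DBA/2J (mean 7.93 ± 0.17, SD) and 8 below it (7.32 ± 0.14). On 1426905_a_at the counts were again 21 and 8, with an empty range from 6.66 to 6.95, and on 1452230_at they were 18 and 11. The widest gaps on 1426904_s_at (7.06 to 7.28) and 1452230_at (5.30 to 5.42) did not fall at the midpoint. On 1426904_s_at 14 families lay above both parents. By the midpoint on that probe set, arrays with markers of another organ were 8 of 22 above and 1 of 8 below. The Gapdh control difference was -0.23 ± 0.085 (SD) above and -0.20 ± 0.085 below. The part of other tissue in this split was not tested. In total 17 families were above on all 3 probe sets, 7 were below on all 3, and 5 changed sides (BXD5, BXD12, BXD24, BXD28 and BXD42). The BXD24 pair itself differed by 0.52 on 1426904_s_at (7.88 in BXD24/TyJ, 7.36 in its Cep290 mutant), whereas the 3 AXB19 arrays spanned 0.041. In BXH, parents differed by at least 0.5 only on 1426905_a_at, where 4 strains (BXH4, BXH7, BXH10 and BXH22) read 7.03 to 7.23 and the other 7 read 6.21 to 6.66. By the midpoint of each probe set, BXH19 changed sides. The sides were chosen by Dnajc10 level, so the differences between them are descriptions.

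Among the 28 classical strains Dnajc10 ran from 6.15 (A/J) through a median of 7.88 to 8.28 (BUB/BnJ) on 1426904_s_at. A/J stood 0.91 below the next strain, NON/ShiLtJ. A further 8 strains, NON/ShiLtJ, NZW/LacJ, NZB/BlNJ, C57L/J, 129X1/SvJ, C57BL/6J, BTBR T<+> tf/J and LG/J, lay between 7.06 and 7.41, and the other 19 at 7.70 or above. A/J also stood apart on the other probe sets, by 0.79 and 0.67. Among the remaining strains the widest gap was 0.29 on 1426904_s_at, 0.23 on 1426905_a_at and 0.097 on 1452230_at. The SD between classical strains was 0.48 (jackknife SE 0.10) on 1426904_s_at and 0.56 (SE 0.12) on 1426905_a_at, larger than that of 92.4% and 94.6% of all tested probe sets. In AXB and BXA the SDs of 0.54, 0.60 and 0.53 exceeded those of 96.8%, 97.5% and 96.7%. The 3 probe sets ran together across families, with r of 0.91 to 0.95 over the 26 AXB and BXA families and 0.69 to 0.88 over the 29 BXD families.

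Genes whose levels ran most like Dnajc10 (1426904_s_at) were found by Spearman's rho over families, among 7511 other genes and with no test. In BXD the first was Frzb (rho 0.79), a secreted Wnt inhibitor whose gene is the direct neighbour of Dnajc10 on chromosome 2, followed by Thbs4 (0.66), Kctd12 (0.66), Manbal (0.64) and Manf (0.63). In AXB and BXA they were Daxx (0.77), Srd5a3 (0.71), Rpa1 (0.69), Grcc10 (0.66) and Tmem176a (0.64), and in the classical strains Cask (0.67), Sumf1 (0.66), Cdh11 (0.65), Rgs5 (0.65) and Rbm7 (0.63). Of the 20 genes of largest absolute rho in AXB and BXA, 7 lay on chromosome 2, against 8.04% of all genes, and 4 lay within 100 genes of Dnajc10, against 1.69%. The same counts were 4 and 1 in BXD, 2 and 1 in the classical strains and 2 and 0 in BXH. No other member was among the 20 genes of highest rho in any of the 4 strain groups. All these values come from the same arrays and share their technical spread.

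Hspa5, Hsp90b1 and Hyou1 (the chaperones proper) showed no called difference in any of the 5 comparisons run. BXD and the AXB and BXA families were not tested against the classical strains. For Hspa5 (1416064_a_at) the means were 10.36 ± 0.15 (SD, n = 29) in BXD, 10.35 ± 0.19 (n = 26) in AXB and BXA and 10.35 ± 0.12 (n = 11) in BXH. The difference of BXD and the AXB and BXA families was 0.016, with a 95% interval of -0.075 to 0.11, so all panels lay close together. The SD of this probe set was small in BXD (percentile 14.4 of all tested probe sets) and BXH (8.36). It was at percentile 39.7 in AXB and BXA and 50 in the classical strains. The other Hspa5 probe set (1427464_s_at) was at 44.4 in BXD, 16.2 in BXH, 50.4 in AXB and BXA and 48.5 in the classical strains. Between BXD and the AXB and BXA families, Hsp90b1 gave differences of 0.011 (1415889_a_at, interval -0.099 to 0.12) and -0.13 (1438040_a_at, -0.30 to 0.034). The Hsp90b1 probe sets disagreed in their ranking of strains, with r of -0.43 in BXH, 0.31 in BXD, 0.39 in AXB and BXA and 0.31 over the classical strains. Those of Hspa5 gave r of 0.60 to 0.90 in the same groups. Hyou1 (1423290_at) varied widely within every group, for example from 3.66 (BXD33) through 4.83 to 5.62 (BXD9) in BXD. Its SDs of 0.56 in the classical strains, 0.48 in BXD and 0.47 in AXB and BXA exceeded those of 94.7%, 94.7% and 95.3% of tested probe sets. The group means of 4.76 (BXD), 4.81 (AXB and BXA) and 4.81 (BXH) differed by less than this spread.

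**Figure D2:**
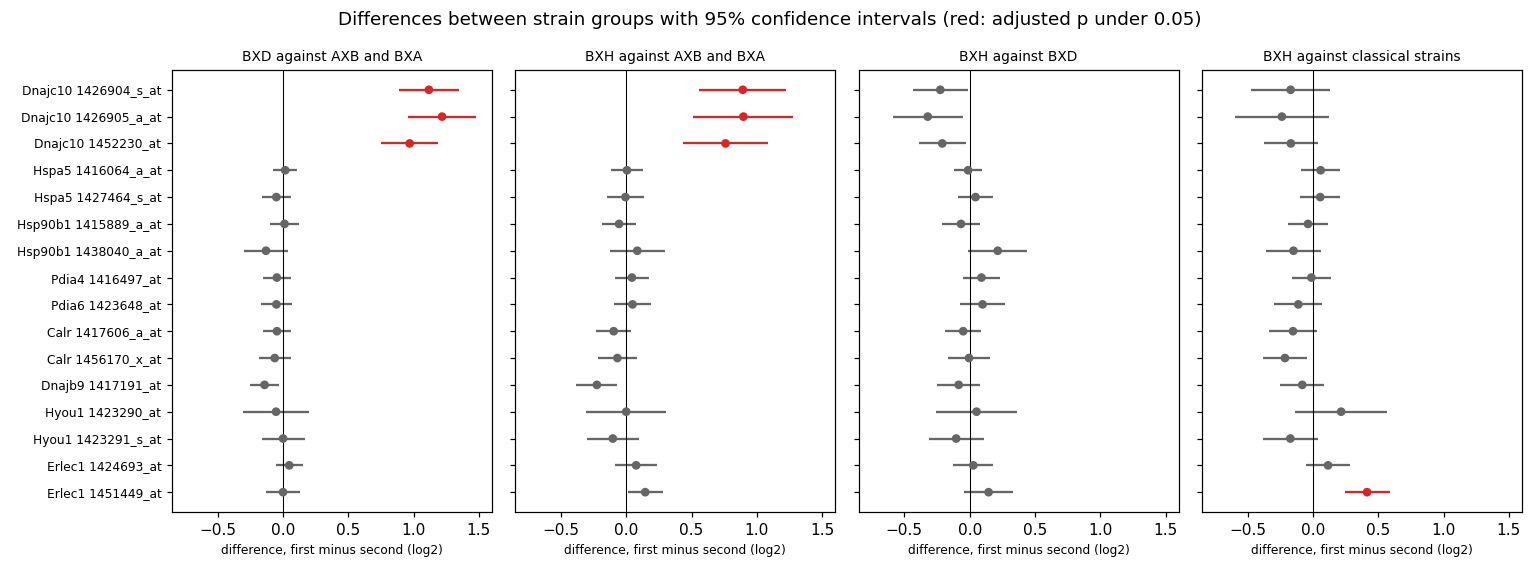
Difference in mean log2 level between strain groups for the 16 tested probe sets, with 95% confidence intervals from limma. Dnajc10 is the member called (red) in both comparisons with the AXB and BXA families, Erlec1 (1451449_at) is called in BXH against the classical strains, and no member is called in BXH against BXD.

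The disulfide isomerases and calreticulin were also alike between panels. Pdia4 (1416497_at) averaged 4.71 ± 0.21 in BXD (SD, n = 29), 4.76 ± 0.18 in AXB and BXA (n = 26) and 4.80 ± 0.15 in BXH (n = 11). Pdia6 (1423648_at) averaged 8.10 ± 0.26, 8.15 ± 0.18 and 8.20 ± 0.22 in the same groups. Calr (1417606_a_at) averaged 9.72 ± 0.20, 9.77 ± 0.18 and 9.67 ± 0.18. None of these passed the test in any comparison, and their differences between panels were at most 0.098 in size on these probe sets. Against the classical strains the second Calr probe set (1456170_x_at) was 0.21 lower in BXH, with an unadjusted p of 0.015 and a limma adjusted p of 0.31.

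Among the smaller co-factors, Dnajb9 (ERdj4), a J-domain protein that carries clients to degradation, came nearest to a call. It averaged 7.90 ± 0.22 in BXD (SD, n = 29) and 7.81 ± 0.27 in BXH (n = 11) against 8.04 ± 0.19 in AXB and BXA (n = 26). The differences of -0.14 (95% interval -0.25 to -0.031) and -0.23 (-0.38 to -0.069) did not pass the test (limma adjusted p = 0.075 and 0.076). With the Gapdh control difference as a covariate the first became -0.040, and without the arrays carrying other-organ markers the second became 0.075, both uncalled. Sdf2l1 lay near the floor in every panel, with medians of 3.52 in BXH, 3.50 in BXD and 3.49 in AXB and BXA.

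Erlec1, which binds trimmed sugars on misfolded glycoproteins, was the member that differed between BXH and the classical strains. On 1451449_at the BXH strains ran from 7.75 (BXH8) through 7.99 to 8.54 (BXH9), and the classical strains from 7.11 (NZB/BlNJ) through 7.65 to 8.14 (C57BL/6J). All 11 BXH strains lay above the classical median, and 18 of 28 classical strains lay below every BXH strain. The difference was 0.41 (SE 0.085, limma adjusted p = 0.020), a 1.33-fold difference with a 95% interval of 1.18 to 1.5. Limma called 24 of 13396 probe sets here, or 0.179%, 0.0523% as higher and 0.127% as lower in BXH. The other Erlec1 probe set (1424693_at) differed by 0.12 (95% interval -0.050 to 0.28) and was not called.

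**Figure D3:**
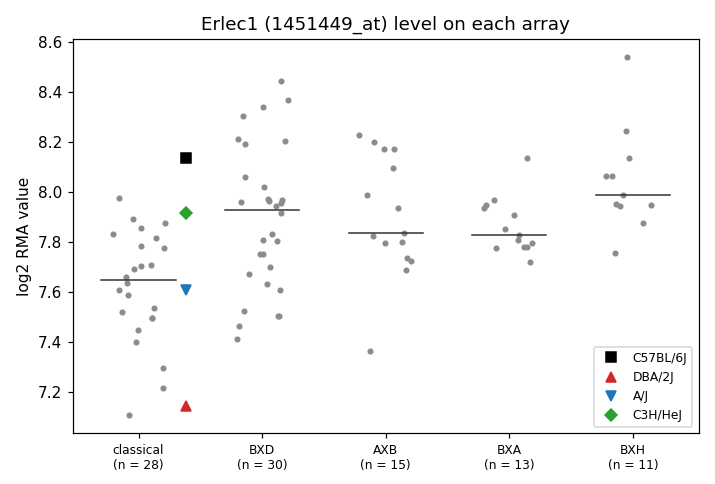
Level of Erlec1 (1451449_at, log2 RMA value) on each array. Grey points are arrays, bars are medians over arrays and coloured symbols the parental arrays. C57BL/6J is the highest classical strain at 8.14, DBA/2J lies at 7.14, and the BXH strains lie between 7.75 and 8.54.

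The Erlec1 call did not hold in smaller sets of arrays. With the 3 BXH and 19 classical strains that lacked other-organ markers the difference was 0.34 (limma adjusted p = 0.79). With the 4 BXH and 23 classical strains in the range of title numbers where both groups occur it was 0.45 (limma adjusted p = 0.59). The 3 BXH strains without such markers read 7.95, 8.14 and 8.06, all above the classical median. Both parents of BXH were high among the classical strains, C57BL/6J at 8.14 as the highest and C3H/HeJ at 7.92 as the third. Erlec1 did not differ between BXD and the AXB and BXA families, with a difference of -0.00043 and a 95% interval of -0.13 to 0.13.

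The parental arrays differed in other chaperones too. In BXD most families lay on the C57BL/6J side of the midpoint for the other members whose parents differed by at least 0.5, unlike Dnajc10. In AXB and BXA, 7 to 16 of 26 families lay above the midpoint for such members, against 10 for Dnajc10. DBA/2J was the highest of the 28 classical strains for 7 of the 19 member probe sets, from 4 genes: Hspa5 (10.85 and 9.61), Calr (10.41 and 7.64), Sdf2l1 (4.29) and Hyou1 (5.88 and 6.70). Over the 16 tested member probe sets it was highest for 6, and over all tested probe sets in 4.26%. It exceeded C57BL/6J by at least 0.5 on 9 of the 16 tested member probe sets, which include the 3 of Dnajc10, against 11% of all tested probe sets. The largest of these differences were 1.77 and 1.17 for Hyou1 and 0.93 for Calr, while Erlec1 was 0.99 lower in DBA/2J. These counts rest on 1 array per parent, and members that run together do not count separately.

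**Figure D4:**
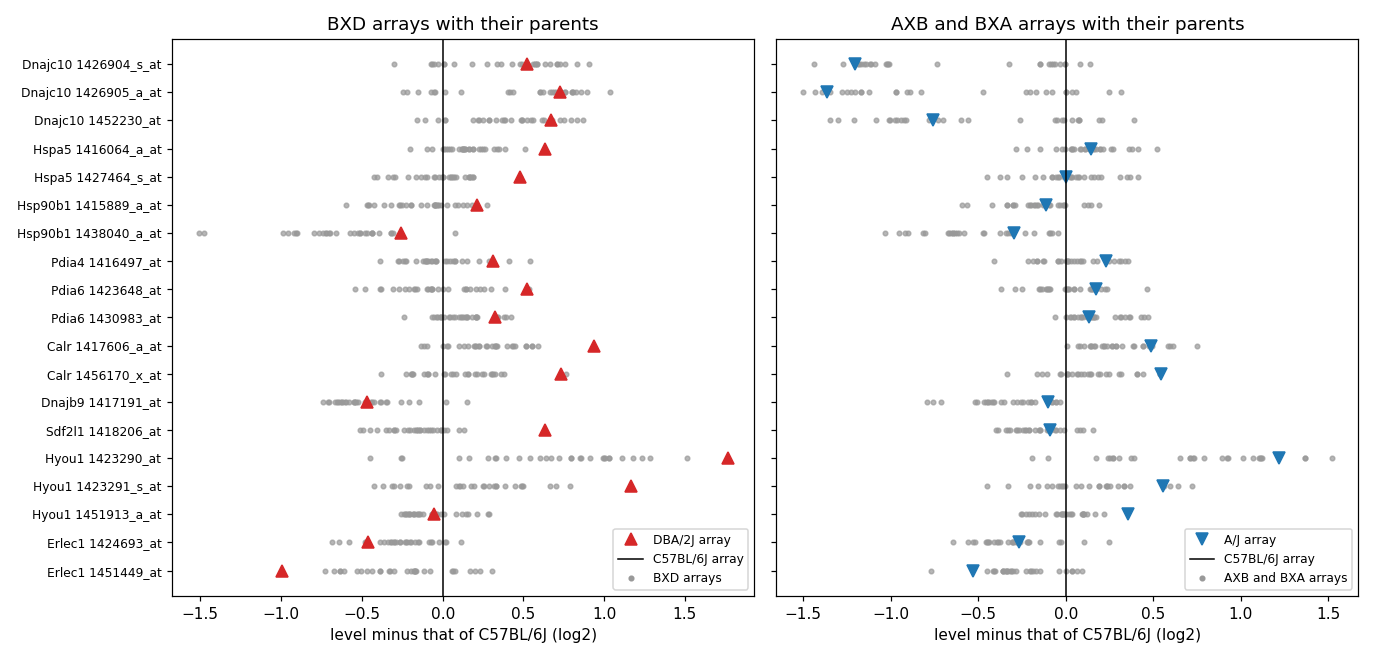
Level of each member probe set minus that of the C57BL/6J array (log2), for the BXD arrays with DBA/2J and for the AXB and BXA arrays with A/J. Points are arrays and triangles the other parent. For Dnajc10 the arrays spread around both parents, whereas for Calr, Sdf2l1 and Hyou1 (1423291_s_at) nearly all BXD arrays lie below DBA/2J.

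For Hspa5 (1416064_a_at) 3 of 29 BXD families lay above the midpoint of C57BL/6J (10.22) and DBA/2J (10.85), and none above DBA/2J. For Calr 4 of 29 (1417606_a_at) and 1 of 29 (1456170_x_at) lay above the midpoint, for Pdia6 3 of 29, and for Sdf2l1 0 of 29. For Hyou1 the counts were 10 of 29 (1423290_at) and 3 of 29 (1423291_s_at). BXD families thus lay mostly on the C57BL/6J side of the midpoint for these genes, against 21 of 29 above the midpoint for Dnajc10 (1426904_s_at). For Hyou1 (1423290_at) the BXD median of 4.83 was still nearer the midpoint of 4.99 than the C57BL/6J value of 4.11. For Erlec1 (1451449_at), lower in DBA/2J, 22 of 29 lay above the midpoint, and 7 of these were above both parents. The classical and BXD title numbers do not overlap, so title number and this contrast cannot be told apart. The airway list mean of the DBA/2J array was 8.77 against a BXD median of 3.46, and its part in the DBA/2J levels was not tested.

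A/J exceeded C57BL/6J by 1.22 and 0.56 for Hyou1 (1423290_at, 1423291_s_at) and by 0.54 for Calr (1456170_x_at), and lay 0.53 below it for Erlec1 (1451449_at). Of the 26 AXB and BXA families, 16 and 8 lay above the midpoint for Hyou1, 7 for Calr and 12 for Erlec1. C3H/HeJ exceeded C57BL/6J by 0.97 and 0.73 for Hyou1 and by 0.73 and 0.57 for Calr, and lay 0.62 below it for Dnajb9. Of the 11 BXH strains, 9 and 1 lay above the midpoint for Hyou1, 4 and 0 for Calr and 2 for Dnajb9. In each panel the Hyou1 probe sets placed different numbers of families above the midpoint.

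Some members lay outside the range of both parents in most families. On Hsp90b1 probe set 1438040_a_at, 28 of 29 BXD families and 21 of 26 AXB and BXA families were below both parents. On 1415889_a_at all 11 BXH strains were, where the parents read nearly alike (8.90 in C57BL/6J and 8.94 in C3H/HeJ). Dnajb9 was below both parents in 22 of 26 AXB and BXA families, its C57BL/6J value of 8.37 being the highest of the 28 classical strains. Sdf2l1, whose probe set fell below the floor and was not tested, was below both parents in 26 of 29 BXD families. Over all tested probe sets, at least 4 in 5 families lay below both parents for 6.13% in BXH, 3.75% in BXD and 7.62% in AXB and BXA. These are named cases, and the share among member probe sets was not counted. Title numbers of the parents and of BXD, AXB and BXA do not overlap, so title number and this contrast cannot be told apart there.

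Across strains some of these genes rose and fell together. Pairs of genes were compared over the strains of each group with the probe set of highest mean, in 180 relations (45 pairs in 4 groups), two-sided permutation tests and Benjamini-Hochberg adjustment over all of them. In the 28 classical strains Hspa5 ran with Calr (r 0.63, permutation p = 0.00037, adjusted p = 0.017; rho 0.56, permutation p = 0.0025, adjusted p = 0.075). Hspa5 also ran with Pdia6 (r 0.61, permutation p = 0.00057, adjusted p = 0.021; rho 0.59, permutation p = 0.0014, adjusted p = 0.061). Without the 2 strains farthest from the Hspa5 median, r was 0.48 with Calr and 0.60 with Pdia6.

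Hyou1 ran with Sdf2l1, whose classical median of 3.57 lies at the floor of 3.59 (r 0.70, permutation p = 6e-05, adjusted p = 0.0090; rho 0.65, permutation p = 0.00027, adjusted p = 0.021), and r was 0.61 without the 2 strains farthest from the Sdf2l1 median. It also ran with Hspa5 (r 0.63, permutation p = 0.00030, adjusted p = 0.017; rho 0.48, permutation p = 0.0097, adjusted p = 0.12), where r fell to 0.39 without the 2 farthest strains. All 4 classical relations lost their call when DBA/2J was left out, with r of 0.50 to 0.57 and adjusted p of 0.090 to 0.11 by permutation. They also lost it in the 19 strains without other-organ markers, with r of 0.45 to 0.62 and adjusted p of 0.19 to 0.26 by permutation. With the airway marker list itself, Hspa5, Calr and Hyou1 had r of 0.15, 0.020 and 0.26 over all 28 classical strains. None of 60 such relations with the airway and the B and plasma cell lists passed the test (smallest adjusted p = 0.68 by permutation). These relations covered the classical, BXD and AXB and BXA groups, not BXH. The part of other tissue in the pairs was not tested. For Hyou1 the pairs used 1423291_s_at, whose r with 1423290_at was 0.47 in the classical strains. Pairs with 1423290_at were not tested.

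**Figure D5:**
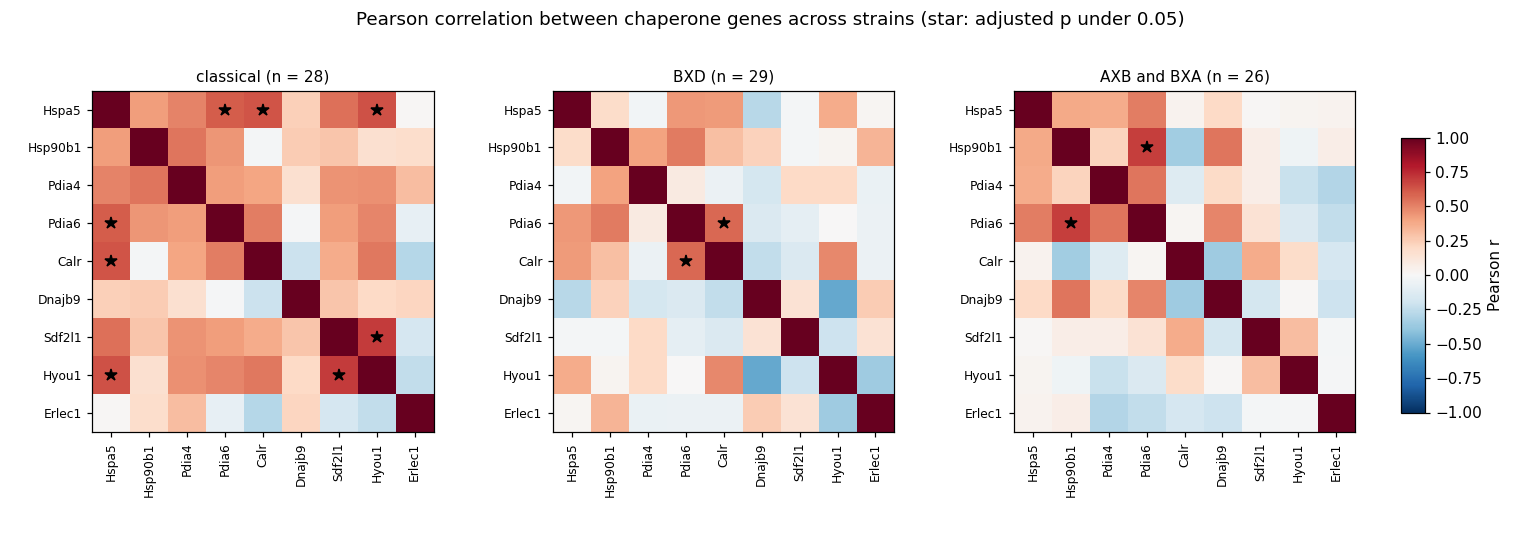
Pearson correlation of the members across the classical strains, the BXD families and the AXB and BXA families. Dnajc10, whose levels form separate clusters in AXB and BXA, is left out. Stars mark an adjusted p under 0.05: 4 pairs in the classical strains and 1 in each panel.

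In the 29 BXD families the called pair was Pdia6 with Calr (r 0.57, permutation p = 0.0012, adjusted p = 0.036; rho 0.52, permutation p = 0.0038, adjusted p = 0.097), with r of 0.48 without the 2 farthest families. In the 26 AXB and BXA families it was Hsp90b1 with Pdia6 (r 0.69, permutation p = 0.00010, adjusted p = 0.0090; rho 0.67, permutation p = 0.00031, adjusted p = 0.021), with r of 0.65 without the 2 farthest. Pdia4 with Pdia6 was called there by rho only (rho 0.66, permutation p = 0.00035, adjusted p = 0.021; r 0.54, permutation p = 0.0049, adjusted p = 0.067). No pair was called in the 11 BXH strains. Whether relations differ between groups was not tested. The choice of Hsp90b1 probe set moved 2 of these values: with 1415889_a_at, Hsp90b1 ran with Hspa5 in the classical strains (r 0.77, adjusted p = 0.0018 by permutation, against r 0.42 with 1438040_a_at), and its r with Pdia6 in AXB and BXA was 0.066.

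Dnajc10 was in no called pair in any group. Within the low and the higher AXB and BXA families, taken separately, its r with the 9 other members ranged from -0.68 to 0.61 over 18 relations, and none passed the test (smallest adjusted p = 0.38 by permutation). The genes most like Hspa5 in the classical strains were Manf (rho 0.80), a secreted ER stress protein, Ube2d2a (0.78), Hsp90b1 (0.78, 1415889_a_at), the cytosolic chaperone Hsp90aa1 (0.76) and Thbd (0.76). In BXD they were Qrsl1 (0.72), Gpbp1 (0.69), Fblim1 (0.69), Tbl1x (0.68) and Pacsin2 (0.67), and in AXB and BXA Sacm1l (0.71), Ppargc1b (0.70), Tmed9 (0.69), Mff (0.69) and Snrpd1 (0.68). No gene was on more than one of these Hspa5 lists, and Manf was also on that of Dnajc10 in BXD.

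The wider ER pathway was read from 4 lists: sensors and transcription factors of the unfolded protein response, other folding genes, ER-associated degradation, and translocon and N-glycan genes. They had 140 tested probe sets of 90 genes. In BXD against the AXB and BXA families limma called 17 of these (6 higher and 11 lower in BXD), or 12.1% against 14.3% of all tested probe sets. The median difference was -0.0058 in the lists and 0.0072 over all tested probe sets. By list, 3 of 15 probe sets of sensors and factors were called, 6 of 49 of folding genes, 1 of 34 of degradation genes and 7 of 42 of translocon and glycan genes.

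The largest called differences of BXD minus the AXB and BXA families were those of Ssr1, a translocon-associated subunit (-0.86, SE 0.12, limma adjusted p = 4.08e-07), and Dnajc1, a J-domain protein of the ER membrane (0.46, SE 0.065, limma adjusted p = 1.21e-06, and 0.30 on its other probe set). They were followed by Trib3 (-0.32) and Atf4 (-0.29), which belong to the PERK arm, and Sec61a1 (-0.25), the channel of the translocon. The mean of Trib3 in BXD (3.58) lay below the floor, against 3.90 in the AXB and BXA families. For Atf4 the means were 8.81 in BXD and 9.10 in the AXB and BXA families. In BXH against the AXB and BXA families 3 of 140 were called (2.14% against 5.61%): the sensor Atf6 (-0.30, limma adjusted p = 0.045), Rcn3 (0.28, 0.047) and Ube2j1 (-0.20, 0.025). Their BXH means were 7.43, 6.49 and 6.03.

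In BXH against BXD 12 of 140 were called (8.57% against 9.91%), 9 higher in BXH. Ssr1 was 0.99 higher in BXH (SE 0.13, limma adjusted p = 1.52e-06) and Dnajc1 0.45 and 0.34 lower. Sec61a1 (0.34), Manf (0.34) and the degradation adaptor Sel1l (0.34) were higher. In AXB against BXA and in BXH against the classical strains 0 of 140 were called. Together the 4 lists held no larger share of called probe sets than the array as a whole in any of these comparisons, which share panels.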

How the data were processed

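Heart RNA was primed with oligo-dT, labelled with biotin and hybridised, per the labels' protocols. The deposited values are log2 intensities of 22416 probe sets (89 controls) on 99 arrays, made by the authors with GCOS and RMA, per the submitters' processing notes. RMA makes the distributions of arrays equal, and array medians were alike (3.97 to 4.07). The depth of an array is not a count, and the number of arrays limits the precision. Probe sequences were not used here, so the effect of strain variants under a probe was not tested, and probe sets were never compared in level with each other.

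Probe sets with 1 symbol in the platform annotation (17783, of which 17759 matched RefSeq by Entrez identifier and 284 others had several symbols) were named. Probe sets with a mean above the 40th percentile (3.59) were tested, 13396 of 22327. Groups were compared with limma 3.58.1 (lmFit, eBayes) in R 4.3.3 over families, without covariates, with Benjamini-Hochberg adjustment over all of them and a threshold of 0.05. Correlations used 100000 permutations, and parental differences of at least 0.5 were followed in the panels. Text names every member, up to 6 called list genes of largest difference per comparison and the 5 genes most like Dnajc10 and Hspa5; families at each side of a gap and 1438040_a_at were singled out after their values were seen. The members and lists were chosen with earlier results of these data known. Python 3.11.15, numpy 2.4.6, scipy 1.17.1, pandas 2.3.3, and matplotlib 3.10.9 were also used.

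Limma was tested on simulated data of 13396 probe sets. Each probe set was given independent normal noise of its own residual spread, equal in both groups. The simulated arrays held no correlated probe sets, other-organ RNA or Gapdh control difference, so the rates below need not hold for real arrays. For BXD against AXB and BXA limma recovered 71.6%, 94% and 100% of differences of 0.25, 0.5 and 1 log2 units with 11 false calls. For BXH against AXB and BXA it recovered 31.3%, 89.6% and 100% with 7 false calls, and in the comparison of BXH with classical strains 38.8%, 85.1% and 97% with 4. For BXH against BXD it recovered 46.3%, 83.6% and 100% with 8 false calls. The comparison of AXB with BXA recovered 23.9%, 79.1% and 100% with 4. The permutation test was also tested on simulated data. Alternatives covered the filter, the probe set per gene, array centring, arrays with other-organ markers, the Gapdh control difference, related strains and title number.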

Additional observations from a re-analysis of the deposited data

Results flagged for a closer look

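In CAST/EiJ, a wild-derived strain that the group comparisons did not use, Dnajb9 (1417191_at) read 8.70, above all 28 classical strains, of which C57BL/6J was the highest at 8.37. Its Hyou1 probe set 1451913_a_at read 3.74, above the classical maximum of 3.67 in A/J, although this probe set lies near the floor in every strain. The other Hyou1 probe sets (5.78 and 6.26) and Dnajc10 (8.25, 7.39 and 5.94) were inside the classical range. Of the 16 tested member probe sets 1 lay above the classical range and 0 below, against 10% and 15.8% of all tested probe sets. This array also carried liver markers (list mean 10.53), airway markers (9.02) and fast skeletal muscle markers (10.22), and their part in these values was not tested.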

How the results depend on the processing

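The Dnajc10 difference of BXD and the AXB and BXA families was called under every alternative run, and none of the 777 alternative values reversed a call. Calls of all probe sets moved more. In BXD against AXB and BXA they fell from 1917 to 1099 with 1 probe set per gene, 924 without arrays carrying other-organ markers, 680 with the Gapdh control difference as a covariate, and 728 and 247 in the lower and upper title numbers. In BXH against AXB and BXA they fell from 751 to 490 with 1 probe set per gene and to 33 without those arrays, where 0 member genes were called. In BXH against BXD they fell from 1327 to 799 with 1 probe set per gene, 152 without those arrays and 791 with the covariate. In BXH against the classical strains they moved from 24 to 0 without those arrays (752 at an unadjusted p under 0.05 by limma), 39 with the covariate and 3 in shared title numbers, with 0 member genes called without those arrays and in shared title numbers. Correlated pairs in the classical strains moved from 4 to 0 without those arrays, to 11 after the Gapdh control difference was removed and to 0 without DBA/2J. In AXB and BXA they moved from 1 to 0 without those arrays and to 0 with the other Hsp90b1 probe set, and in BXD from 1 to 2 after the control difference was removed. Fewer arrays or probe sets were tested in several of these settings, and otherwise the cause was not tested. The settings without DBA/2J, without A/J and with the other Hsp90b1 probe set were chosen after seeing the data. BXH correlations without other-organ arrays had only 3 strains and gave no value. No paired analysis was possible because the labels give the groups no shared replicate numbers.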

Other observations

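Repeat-like arrays exist only for the related strains. Over AXB19 with its sublines and the BXD24 pair, the within-family SD (5 arrays, 3 degrees of freedom) ranged over the 19 member probe sets from 0.032 for Hyou1 (1423290_at) to 0.29 for Dnajb9, with a median of 0.19. For Hyou1 this compares with an SD between families of 0.48 in BXD, and for Dnajb9 with 0.22. The AXB19 arrays alone spanned 0.70 for Dnajb9, from 7.61 to 8.31, a wider span than that of the 13 AXB families (7.85 to 8.33).

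In B6cC3-1/KccJ, the other strain outside the groups, Calr (1417606_a_at) read 9.28, below all 28 classical strains, of which PL/J was the lowest at 9.29. The other 15 tested member probe sets were inside the classical range. Dnajc10 read 7.15, 6.27 and 4.97 in this strain. PL/J was the lowest classical strain for 5 of the 19 member probe sets, of Hspa5, Pdia6 and Calr. These included both Calr probe sets and Pdia6 1430983_at, which fell below the floor. The share of lowest ranks over all tested probe sets was not counted.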
